A study of Homo sapiens with 24 samples.

Results

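NR4A1, NR4A2 and NR4A3 make up the NR4A subfamily of nuclear receptors, and they were followed through every exon and junction probe set that carries exactly 1 of these symbols. These were 98 of the 913055 exon and junction probe sets of the array, 56 for exons and 42 for junctions, and the 3 genes were among 18613 with an exon mean. NR4A1 had 18 exon and 15 junction probe sets, NR4A2 had 24 and 17, and NR4A3 had 14 and 10. No member probe set shared its symbol with another gene. The family was chosen by measured values, namely the isoginkgetin minus DMSO differences of these probe sets, including 1 NR4A2 junction that went the other way from its gene, so all values of that contrast are given as a description, without a test.

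The RNA came from HCT116 cells, a line of human colorectal carcinoma, and from their p53-null subline, both grown in the same medium and plated at least 24 h before treatment. Cells of each line received 30 µM isoginkgetin, a biflavonoid from plants that is known to inhibit the splicing of pre-mRNA, an equal volume of its vehicle DMSO, or no treatment, for 8 h. Each of the 6 groups had 2 arrays (Affymetrix Human Transcriptome Array 2.0) from independent experiments, 12 in all. A set is the 3 arrays that share a line and a replicate number, and differences were taken within the 4 sets. The labels do not say whether the p53-null subline is 1 clone.

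NR4A receptors are immediate early genes: their transcripts appear soon after growth factors, calcium, cAMP or stress signals reach the nucleus, and they bind DNA without a known hormone, since bulky side chains fill the pocket where other receptors hold their ligand. NR4A1 (Nur77) is known from T cell death and steroid-producing cells, NR4A2 (Nurr1) from the development of dopamine neurons, and NR4A3 (NOR1) from blood vessels and as a fusion partner in a sarcoma. All bind the NBRE element as monomers, and NR4A1 and NR4A2, but not NR4A3, can pair with retinoid X receptors. CREB, acting at cAMP response elements (CRE), and MEF2 factors are the best known activators of their promoters.

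Because the 3 genes differed in the same direction in 3 of the 4 sets, the promoters of NR4A3 and NR4A1 are shown, from RefSeq (GRCh38.p14, 250 bases before the annotated start, plus strand). By symbol, NR4A3 matched this promoter collection with 1 start, NR4A1 with 2 and NR4A2 with 0. Capitals mark the CRE core TGACG on either strand. The windows were also searched on both strands for the full CRE TGACGTCA, which contains the core, for the C/EBP-ATF composite TGATGNAA, and for the NBRE AAAGGTCA.
NR4A3 chr9:99821635-99821884: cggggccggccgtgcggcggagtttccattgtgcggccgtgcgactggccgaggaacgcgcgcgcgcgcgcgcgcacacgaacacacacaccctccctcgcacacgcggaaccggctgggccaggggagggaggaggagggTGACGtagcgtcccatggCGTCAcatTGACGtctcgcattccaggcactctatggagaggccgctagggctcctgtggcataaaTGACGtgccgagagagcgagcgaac
NR4A1 chr12:52022582-52022831: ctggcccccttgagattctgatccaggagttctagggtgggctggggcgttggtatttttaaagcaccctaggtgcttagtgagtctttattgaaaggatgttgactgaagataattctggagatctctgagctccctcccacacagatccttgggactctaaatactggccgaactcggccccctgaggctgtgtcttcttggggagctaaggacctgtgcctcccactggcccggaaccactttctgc
NR4A1 chr12:52037465-52037714: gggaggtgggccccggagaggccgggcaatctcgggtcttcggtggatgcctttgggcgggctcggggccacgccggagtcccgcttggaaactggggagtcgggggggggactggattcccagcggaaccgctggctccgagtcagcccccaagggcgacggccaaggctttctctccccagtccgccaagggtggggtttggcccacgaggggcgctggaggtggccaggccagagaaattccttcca
The NR4A3 window held 4 cores that do not overlap each other. On the plus strand they ran from base 109 to base 105, from 83 to 79 and from 25 to 21 before the start, and on the minus strand from 91 to 87. Of 35116 promoters of this length, 21.22% held at least 1 core. The full CRE was in 1.646% of promoters, the C/EBP-ATF composite in 3.144% and the NBRE in 1.045%, and none of these letters was in the 3 windows. Neither NR4A1 window held a core. Which start the NR4A1 transcripts of these cells used was not measured, so these 2 windows need not be the promoter in use.

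The arrays labelled HCT116 replicate 1 stood apart from the other 9, whatever the treatment. All 7 epithelial markers examined (EPCAM, KRT8, KRT18, KRT19, CDH1, CLDN4 and CLDN7) had exon means of 3.81 to 5.78 log2 there, against 9.61 to 14.43 in the other 3 sets. Of the 5 mesenchymal markers, VIM averaged 12.56 in that set, against 3.10 to 3.67 elsewhere, FBN1 7.33 against 3.36 to 3.58 and THY1 7.79 against 3.61 to 3.67, while COL1A1 and COL1A2, at 4.80 and 4.67, were closer to the 3.63 to 4.14 of the others. The median over all exon probe sets was 5.03 to 5.08 on these 3 arrays and 4.14 to 4.22 on the others. The defining markers of an epithelial carcinoma were thus at or below 5.78 in 1 of the 2 HCT116 sets. Isoginkgetin minus DMSO of the 3 genes is therefore given for each set singly. Correlations and fits use all 12 arrays, this set included, unless said otherwise. The part of this in the NR4A values was not tested.

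NR4A2 had the widest difference of the 3 genes in both p53-null sets and in HCT116 replicate 2. In the exon mean, the average log2 value over the exon probe sets of a gene, NR4A2 stood at 12.27 with isoginkgetin, 10.11 with DMSO and 10.33 untreated in p53-null replicate 1, and at 11.06, 9.55 and 9.36 in p53-null replicate 2. In HCT116 replicate 2 the values were 10.34 with isoginkgetin, 8.46 with DMSO and 8.34 untreated. In each of these 3 sets the treated array lay above both controls, which differed by 0.12 to 0.22 from each other. In HCT116 replicate 1, NR4A2 was at 3.98 with isoginkgetin, 3.81 with DMSO and 3.89 untreated, so all 3 arrays lay far below those of the other sets. Isoginkgetin minus DMSO was 2.15 and 1.51 in p53-null cells (mean 1.83 ± 0.45 log2, SD, n = 2; 3.56-fold), and 0.17 and 1.88 in HCT116 replicates 1 and 2 (mean 1.02 ± 1.21). Counted from the top of all 18613 genes, NR4A2 was number 5 in both p53-null sets, 8 in HCT116 replicate 2 and 1392 in HCT116 replicate 1. RNA from bulk cultures cannot tell fewer cells with a transcript from less transcript per cell.

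In NR4A1 the 2 HCT116 sets went opposite ways. Its exon mean was 7.84 with isoginkgetin, 6.94 with DMSO and 7.04 untreated in p53-null replicate 1, and 7.30, 6.78 and 6.72 in p53-null replicate 2. HCT116 replicate 2 had 7.38 with isoginkgetin, against 6.46 on both control arrays. HCT116 replicate 1 had 6.82 with isoginkgetin, 7.40 with DMSO and 7.48 untreated. These were the highest control levels of NR4A1 in the series, on arrays whose median over all exon probe sets was also higher than in the other sets. Isoginkgetin minus DMSO was 0.91 and 0.52 in p53-null cells (mean 0.71 ± 0.28 log2, SD, n = 2; 1.64-fold), but -0.58 in HCT116 replicate 1 and 0.92 in replicate 2, whose mean of 0.17 ± 1.06 does not describe either set. From the top of all genes, NR4A1 was number 28 and 44 in the p53-null sets and 53 in HCT116 replicate 2, and number 18520 of 18613 in HCT116 replicate 1.

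NR4A3 lay between 3.79 and 4.06 on every control array, below the median over all exon probe sets. The treated arrays read 4.88 and 4.49 in p53-null replicates 1 and 2, against 3.93 and 3.94 with DMSO and 3.79 and 3.94 untreated. They read 4.07 and 4.74 in HCT116 replicates 1 and 2, against 3.95 and 4.06 with DMSO and 3.91 and 4.03 untreated. The treated array was thus the highest of its set in all 4 sets. Isoginkgetin minus DMSO was 0.95 and 0.54 in p53-null cells (mean 0.75 ± 0.29 log2, SD, n = 2; 1.68-fold) and 0.13 and 0.67 in HCT116 (mean 0.40 ± 0.39). Its places from the top were 23 and 38 in the p53-null sets, 108 in HCT116 replicate 2 and 2366 in HCT116 replicate 1.

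**Figure D1:**
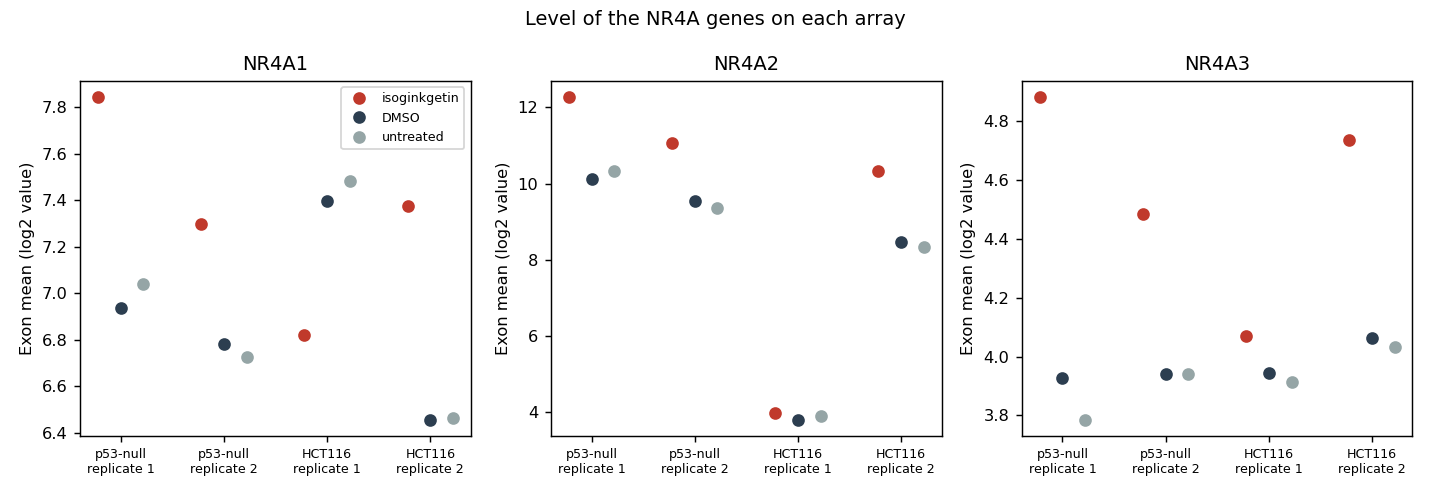
Exon mean (log2) of NR4A1, NR4A2 and NR4A3 on each of the 12 arrays, by set, 1 point per array, with isoginkgetin, DMSO and untreated from left to right and a separate axis range for each gene. The treated array is the highest of its set everywhere except for NR4A1 in HCT116 replicate 1, and NR4A2 in that set stays between 3.81 and 3.98.

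Against the untreated arrays in place of DMSO, NR4A2 was 1.93 and 1.69 higher in the p53-null sets and 0.09 and 2.00 higher in HCT116 replicates 1 and 2. The same differences were 0.80 and 0.57 for NR4A1 in p53-null cells, and -0.66 and 0.92 in HCT116. For NR4A3 they were 1.10 and 0.55 in p53-null cells, and 0.16 and 0.70 in HCT116. The 2 comparisons share the treated arrays. The row of the gene-level table for NR4A2 gave 13.29 and 11.88 with isoginkgetin in p53-null cells, against 11.10 and 10.37 with DMSO, and 11.10 against 9.09 in HCT116 replicate 2. In HCT116 replicate 1 that row was 3.83 on all 3 arrays, and the NR4A3 row was 3.88 on all 3. Elsewhere the NR4A3 row read 4.50 and 4.02 with isoginkgetin in p53-null cells, against 3.77 and 3.82 with DMSO, and 4.40 against 4.06 in HCT116 replicate 2. For NR4A1 it was 7.72 and 6.96 against 7.10 and 6.59 in p53-null cells, and 6.79 and 6.93 against 7.09 and 6.35 in HCT116. The DMSO and untreated values of these 2 genes were equal in every set, so a tie need not mean an unchanged level.

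The exon probe sets show how much of each gene took part. Of the 24 NR4A2 exon probe sets, 20 were more than 1 log2 higher with isoginkgetin than with DMSO in both p53-null sets and in HCT116 replicate 2, while 0.0368% of all 573909 exon probe sets met that rule, which the choice of the family had already used. These 20 differed by 1.57 to 3.38 log2 in p53-null replicate 1, by 1.16 to 2.73 in p53-null replicate 2 and by 1.26 to 2.90 in HCT116 replicate 2. PSR02038523.hg.1, 1 of the 20, read 16.67 and 14.99 with isoginkgetin in p53-null replicates 1 and 2, against 14.66 and 13.50 with DMSO, and 15.01 against 12.63 in HCT116 replicate 2. In HCT116 replicate 1 it read 2.73 on the isoginkgetin and the DMSO array, and no NR4A2 exon probe set exceeded 5.70 on any array of that set. Of the 4 others, PSR02038535.hg.1 and PSR02038536.hg.1 stayed under 6 log2 on all 12 arrays, and PSR02038518.hg.1 and PSR02038527.hg.1 differed by 0.69 and 0.49 in p53-null replicate 2.

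In NR4A1, 6 of 18 exon probe sets met the same rule. Of the 9 at or above 6 log2 with DMSO, 7 and 6 were more than 1 log2 higher with isoginkgetin in p53-null replicates 1 and 2 and 7 in HCT116 replicate 2, and of the 9 under 6 log2 in those sets, 1, 0 and 0 were. In order of their numbers the 6 were the 9th and the 12th to 16th. They differed by 1.57 to 2.65 log2 in p53-null replicate 1, by 1.03 to 1.32 in p53-null replicate 2 and by 1.39 to 2.65 in HCT116 replicate 2, and all 6 were lower with isoginkgetin in HCT116 replicate 1, by -1.43 to -0.72. PSR12005309.hg.1 read 13.66 and 12.09 with isoginkgetin in the p53-null sets, against 11.01 and 10.77 with DMSO, and 13.29 against 10.94 in HCT116 replicate 2. In HCT116 replicate 1 it read 10.13 with isoginkgetin and 11.20 with DMSO. PSR12005295.hg.1, which comes before them in number, read 12.38, 12.92, 13.18 and 11.94 with isoginkgetin in the 2 p53-null and the 2 HCT116 sets, against 12.52, 12.62, 13.10 and 11.98 with DMSO. The treated and DMSO arrays of this probe set were thus within 0.30 of each other in every set. The files give no genome position for these numbers, so the order is not shown to be the order along the transcript.

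NR4A3 had 2 of 14 exon probe sets that met the rule, PSR09005515.hg.1 and PSR09005522.hg.1. PSR09005522.hg.1 read 4.90 and 5.25 with isoginkgetin in the p53-null sets, against 3.21 and 3.91 with DMSO, and 5.07 against 3.88 in HCT116 replicate 2. No NR4A3 exon probe set reached 6 log2 on every array of the 3 sets, and 10 of 14 stayed under 6 on all 12 arrays.

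**Figure D2:**
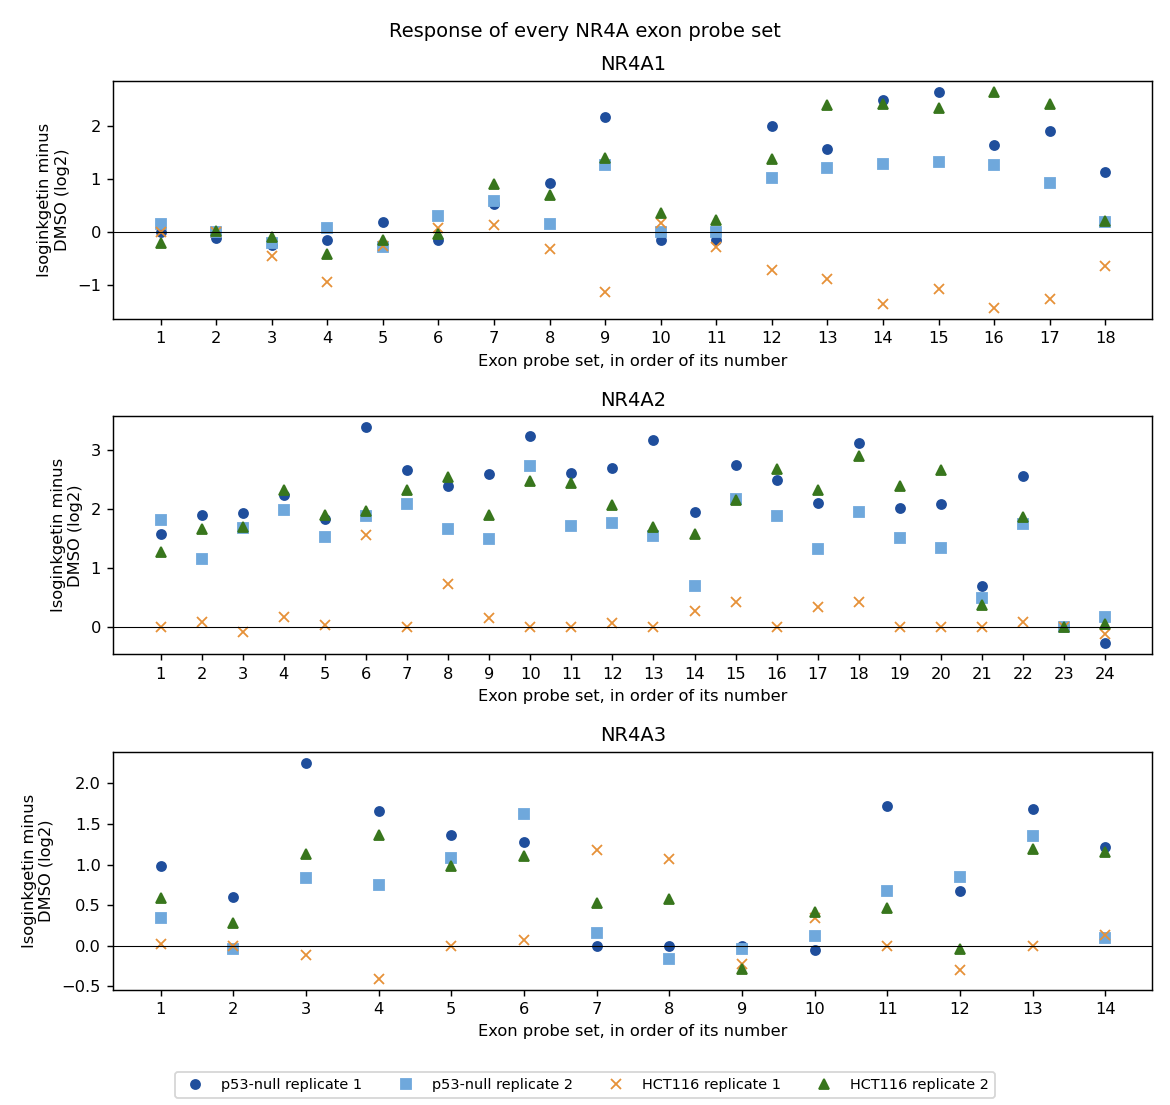
Isoginkgetin minus DMSO (log2) for each of the 56 exon probe sets, in order of probe set number, with a symbol for each of the 4 sets and a line at 0. In NR4A2, 20 of 24 probe sets lie above 1 in the 3 sets other than HCT116 replicate 1. The crosses of that set run from -0.09 to 1.55 for these 20. In NR4A1 the crosses lie below 0 where the other symbols lie above 1.

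Among the 42 junction probe sets, which span 2 joined exons, 26 were higher with isoginkgetin than with DMSO in both p53-null sets and in HCT116 replicate 2, against 12.8% of all 339146 junction probe sets. By gene these were 7 of 15 in NR4A1, 11 of 17 in NR4A2 and 8 of 10 in NR4A3. The choice of the family had already used these differences, so the counts are a description and not a separate result. JUC02020173.hg.1 of NR4A2 read 16.25 and 14.78 with isoginkgetin in the p53-null sets, against 13.99 and 13.05 with DMSO, and 14.63 against 11.79 in HCT116 replicate 2. It read 3.98 against 4.02 in HCT116 replicate 1, where the exon mean of NR4A2 differed by 0.17. JUC12002922.hg.1 of NR4A1 differed in the direction of its gene in all 4 sets, with 13.86, 12.31 and 13.43 with isoginkgetin in those 3 sets, against 11.63, 10.50 and 11.25 with DMSO, and 10.26 against 11.60 in HCT116 replicate 1. For NR4A3, JUC09003066.hg.1 read 7.42, 6.63 and 7.53 with isoginkgetin, against 5.65, 4.99 and 5.39 with DMSO, and 4.51 against 3.59 in HCT116 replicate 1.

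**Figure D3:**
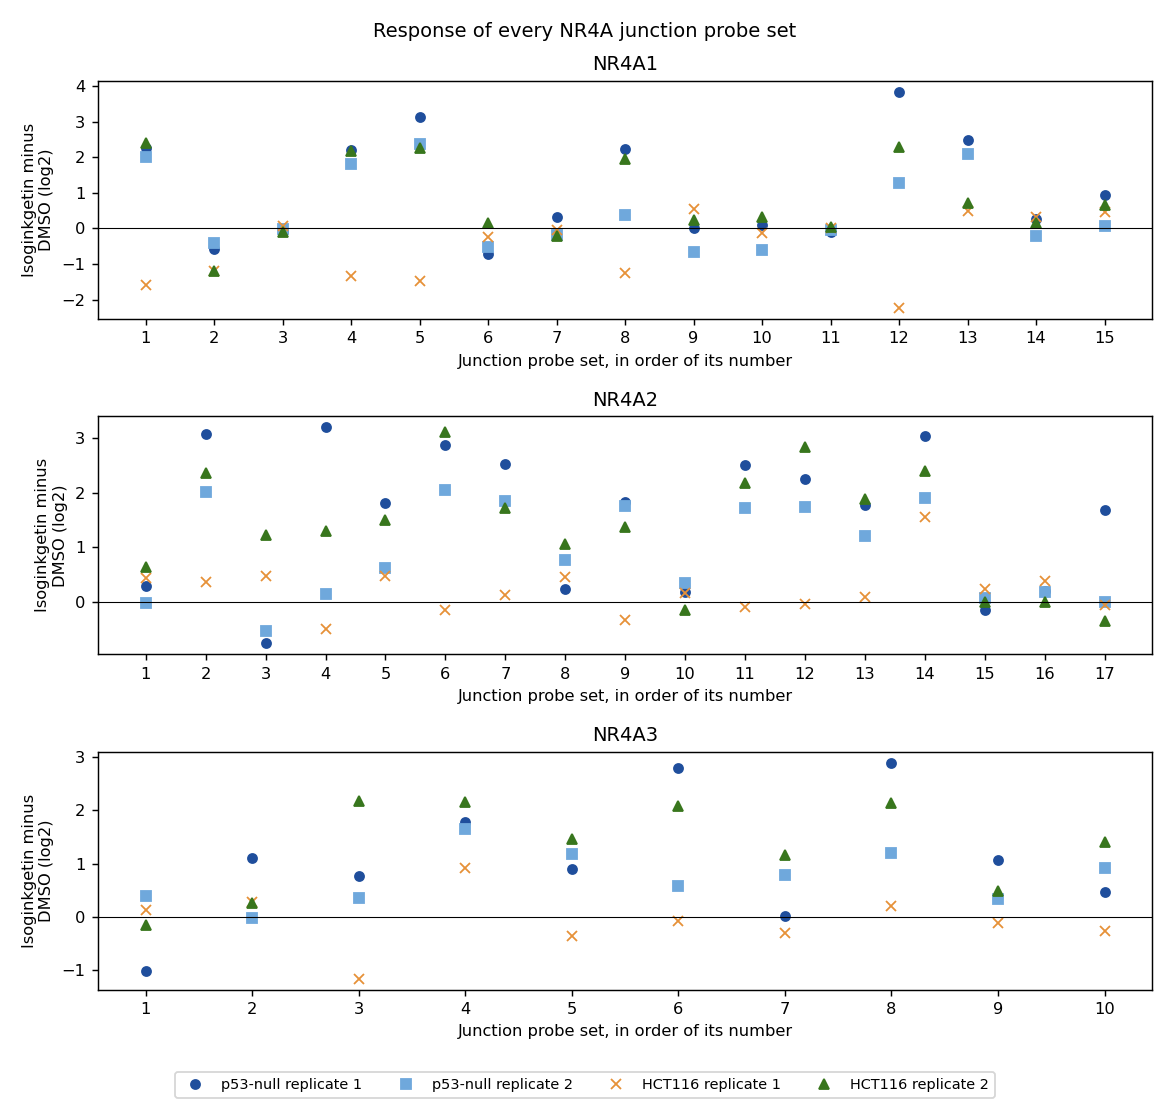
Isoginkgetin minus DMSO (log2) for each of the 42 junction probe sets, in order of probe set number, with a symbol for each of the 4 sets and a line at 0. The third NR4A2 junction lies below 0 in both p53-null sets and above 0 in both HCT116 sets, and the second NR4A1 junction lies below 0 in all 4.

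JUC02020164.hg.1 is the NR4A2 junction that went the other way. It read 8.73 with isoginkgetin, 9.50 with DMSO and 8.74 untreated in p53-null replicate 1, and 9.55, 10.09 and 9.43 in p53-null replicate 2. In both sets the DMSO array was the highest, and the treated array was within 0.12 of the untreated one. In HCT116 it read 9.59 with isoginkgetin, 9.11 with DMSO and 8.73 untreated in replicate 1, and 9.41, 8.18 and 8.72 in replicate 2, so that the treated array was the highest. Isoginkgetin minus DMSO was -0.76 and -0.54 in p53-null cells and 0.48 and 1.23 in HCT116. Isoginkgetin minus untreated was -0.01 and 0.12 in p53-null cells and 0.86 and 0.69 in HCT116, so the lower value in p53-null cells was seen against DMSO and not against untreated cells. Relative to the NR4A2 exon mean, the junction was lower with isoginkgetin than with DMSO by -2.48 ± 0.62 log2 in p53-null cells (SD, n = 2), and by -1.76 ± 0.26 than in untreated cells. In HCT116 the relative difference was 0.31 in replicate 1 and -0.65 in replicate 2.

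The level of this junction did not follow that of its gene between sets. It stayed between 8.18 and 10.09 log2 over all 12 arrays, and on the 3 arrays of HCT116 replicate 1 it was at 8.73 to 9.59, where the 24 exon probe sets of NR4A2 lay between 2.21 and 5.70. JUC02020162.hg.1 likewise read 7.99 to 8.42 in HCT116 replicate 1 and 7.89 to 9.55 elsewhere, and JUC02020169.hg.1 read 6.76 to 7.21 there and 5.27 to 6.60 elsewhere. The only other NR4A2 junction at or above 6 on those 3 arrays, JUC02020174.hg.1, read 6.44 to 6.59 there but 13.25 to 16.58 elsewhere. Of the relative difference of -2.48 for JUC02020164.hg.1 in p53-null cells, its own difference made up -0.65 and that of the exon mean 1.83.

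Among the NR4A1 junctions, JUC12002920.hg.1 was lower with isoginkgetin than with both controls in every set. It read 7.65 with isoginkgetin, 8.23 with DMSO and 8.12 untreated in p53-null replicate 1, and 7.32, 7.73 and 8.15 in p53-null replicate 2. In HCT116 replicate 1 it read 9.44, 10.65 and 11.11, and in replicate 2 it read 6.33, 7.52 and 7.06. The differences from DMSO were -0.58, -0.41, -1.20 and -1.19 in these 4 sets, and those from untreated cells were -0.47, -0.83, -1.67 and -0.72. Relative to the NR4A1 exon mean the difference from DMSO was -1.21 ± 0.39 in p53-null cells and -1.37 ± 1.05 in HCT116 (SD, n = 2 each), where it was -0.63 in replicate 1 and -2.11 in replicate 2. JUC12002924.hg.1, the other junction below both controls in both p53-null sets, read 3.39 and 3.04 with isoginkgetin there, against 4.11 and 3.55 with DMSO and 3.87 and 3.37 untreated.

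**Figure D4:**
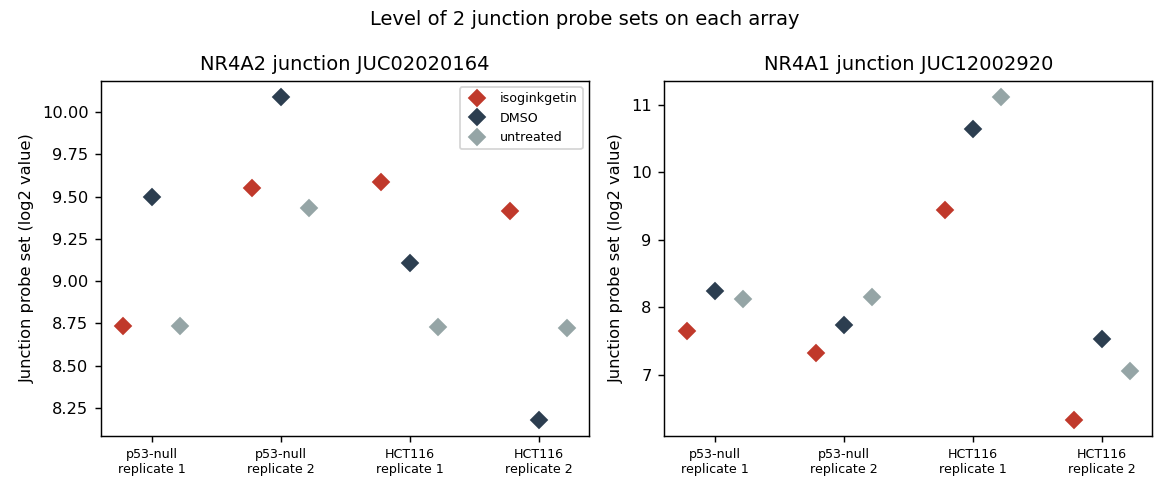
Log2 value of the NR4A2 junction JUC02020164 and the NR4A1 junction JUC12002920 on each of the 12 arrays, by set, 1 point per array, with isoginkgetin, DMSO and untreated from left to right. The NR4A2 junction is highest with DMSO in the p53-null sets and highest with isoginkgetin in the HCT116 sets, and the NR4A1 junction is lowest with isoginkgetin in all 4 sets.

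Of the 42 junctions, 5 were lower with isoginkgetin than with DMSO in both p53-null sets, 4 in NR4A1 and 1 in NR4A2, against 24% of all junction probe sets. In all 4 sets 1 was lower, against 7.63%, and 2 were below both controls in both p53-null sets, against 11.3%. Relative to the exon mean of the gene, 19 of 42 lay below 0 in both p53-null sets, against 25.3% of 285964 junctions, and 6 lay below -1, against 0.32%. These shares are no like baseline, since the median gene differed by 0.01 and 0.00 in the 2 sets and the NR4A2 exon mean by 2.15 and 1.51. A NR4A2 junction that stays level thus lies below -1, through the rise that chose the family. JUC02020162 differed from DMSO by only 0.29 and -0.03. The 6 were JUC02020162, JUC02020164, JUC02020171, JUC02020176 and JUC02020177 of NR4A2 and JUC12002924 of NR4A1. JUC02020171, JUC02020176 and JUC02020177 read 1.39 to 2.84 log2 on all 12 arrays, below the lower quartile of all exon probe sets on any array (2.90 to 3.68), and differed by at most 0.34 from DMSO in the p53-null sets. Single junctions also varied more than exons without the drug. Over the 3 sets other than HCT116 replicate 1, the median absolute difference between DMSO and untreated arrays was 0.31 log2 for the member junctions, with 1.83 as the highest, against 0.16 and 0.87 for the member exon probe sets.

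The vehicle alone was tested on the untreated arrays, which played no part in choosing the family, against the DMSO arrays, which did. DMSO minus untreated was -0.02 ± 0.34 for NR4A1, -0.02 ± 0.42 for NR4A2 and 0.07 ± 0.16 for NR4A3 in p53-null cells (log2, SE, limma with the set as a block), and -0.05 ± 0.34, 0.02 ± 0.42 and 0.03 ± 0.16 in HCT116. The adjusted p was at least 0.9998 in every case. For NR4A3 in HCT116 the single differences were 0.03 and 0.03, beside that SE of 0.16. With a spread that includes the isoginkgetin arrays, such a p does not show that the vehicle had no effect. No gene of 18613 passed an adjusted p of 0.05 in either line (0%), and 809 in p53-null cells and 411 in HCT116 had an unadjusted p under 0.05. Of the levels of 667364 probe sets relative to the exon mean of their gene none passed either (0%), with 34129 and 27265 at an unadjusted p under 0.05. Among the 98 member probe sets, JUC02020168.hg.1 of NR4A2 (-0.37 ± 0.11, adjusted p = 0.896) and PSR12005298.hg.1 of NR4A1 (0.69 ± 0.23, adjusted p = 0.929) had the lowest adjusted p, both in p53-null cells. JUC02020164.hg.1 was higher with DMSO than untreated by 0.72 ± 0.46 relative to its gene in p53-null cells (adjusted p = 0.989), with single differences in its own level of 0.76 and 0.66.

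Between the lines, NR4A2 in untreated cells averaged 9.85 ± 0.68 log2 in p53-null cells and 6.12 ± 3.15 in HCT116 (SD, n = 2 each). The difference of 3.73 ± 1.22 (SE) did not pass the test (limma, adjusted p = 0.97, unadjusted p = 0.0158), and 0.00537% of the 18613 genes did. Both p53-null arrays, at 10.33 and 9.36, lay above both HCT116 arrays, at 3.89 and 8.34. Without HCT116 replicate 1, NR4A2 was higher in p53-null cells by 1.51 log2. That limma fit called 2.54% of genes, 0.688% higher and 1.85% lower. It has 1 HCT116 array, which shows no spread of its own, and the 2 p53-null arrays had an SD of 0.68 for NR4A2. The difference is therefore given as a size only, and these 3 arrays cannot decide whether the lines differ in NR4A2. NR4A1 averaged 6.88 ± 0.22 in untreated p53-null cells and 6.97 ± 0.72 in untreated HCT116 cells, and NR4A3 3.86 ± 0.11 and 3.97 ± 0.09. Their differences were -0.09 ± 0.51 and -0.11 ± 0.44 (SE, limma, adjusted p = 0.97 each). The sign of both turned when arrays were scaled to the same quantiles or centred, to 0.35 and 0.36 for NR4A1 and 0.19 and 0.34 for NR4A3.

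Among the rest of the nuclear receptor superfamily, isoginkgetin minus DMSO ran from -0.61 to 0.40 log2 in p53-null cells and from -0.37 to 0.38 in HCT116. Of 45 other receptors 41 were measured, and in p53-null cells none passed the test (limma with the set as a block), beside 0.398% of all genes. At an unadjusted p under 0.05 were 8 of them, beside 2183 of all 18613 genes. Their median difference was 0.02 log2, and that of all genes 0.01. By the mean absolute difference over the 4 sets the largest were NR2F1, an orphan receptor of the COUP-TF group, at -0.61 ± 0.18 (SE) in p53-null cells, and the glucocorticoid receptor NR3C1 at 0.28 ± 0.13. In HCT116, where 3.72% of all genes passed, 0.677% as higher and 3.05% as lower, PPARD, a fatty acid sensor, rose by 0.30 ± 0.04 (adjusted p = 0.018) and the orphan receptor NR2C2 fell by 0.29 ± 0.06 (adjusted p = 0.044). With no replicate block, and without either p53-null set, 0 receptors passed in HCT116. The median was 0.00 for the list and 0.01 for all genes.

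Without HCT116 replicate 1, 2 of the 41 receptors passed as higher and 2 as lower in p53-null cells, where 2.38% of genes passed, 1.22% as higher and 1.16% as lower. These were PPARG, the fat cell receptor, at 0.40 (adjusted p = 0.012), NR3C1 (adjusted p = 0.046), NR2F1 (adjusted p = 0.0091) and NR2C2 at -0.32 (adjusted p = 0.040). HCT116 then has 1 treated and 1 DMSO array, and the fit takes its spread wholly from the p53-null sets. That fit called 13.8% of genes in HCT116, 4.84% as higher and 9% as lower. Such calls cannot show which receptors differed in HCT116, so the differences are given as sizes only. Between these arrays NR3C1 differed by 0.65, the vitamin D receptor VDR by -0.59, NR2F6 by -0.55 and PPARG by 0.30.

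None of the 3 retinoid X receptors, the pairing partners of NR4A1 and NR4A2, passed in either line, and 0 in p53-null cells and 1 in HCT116 had an unadjusted p under 0.05. Of all 18613 genes, 0.398% passed in p53-null cells and 3.72% in HCT116, and 2183 and 4746 had an unadjusted p under 0.05. RXRB was at -0.09 ± 0.04 and -0.13 ± 0.04 and RXRG at -0.03 ± 0.04 and 0.04 ± 0.04 in p53-null cells and HCT116 (SE). Of 19 regulators of CREB and MEF2, 16 were measured and none passed, with 8 and 7 at an unadjusted p under 0.05, and medians of -0.05 in p53-null cells and -0.08 in HCT116. MEF2C, a MEF2 factor, was at -0.44 ± 0.15 and -0.51 ± 0.15, and CREBBP, the CREB coactivator, at -0.24 ± 0.07 and -0.22 ± 0.07. Without HCT116 replicate 1, CREBBP fell in p53-null cells (limma, adjusted p = 0.043), where 2.38% of genes passed, 1.16% as lower. HCT116 then has 1 treated and 1 DMSO array. Between them PRKACA, a catalytic subunit of protein kinase A, differed by -0.77 and MEF2C by -0.78. MEF2D differed by 0.35, and HDAC5, which represses MEF2 factors, by -0.27.

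Other immediate early genes that CREB can activate gave 13 measured of 15, with a median of 0.07 in p53-null cells and -0.03 in HCT116. None passed in p53-null cells, where 0.398% of all genes did. At an unadjusted p under 0.05 there were 4, beside 2183 of all 18613 genes. EGR1, a zinc finger factor, was at 0.05 and 0.04 in the p53-null sets, and at -2.30 and 0.74 in HCT116 replicates 1 and 2. ATF3, a stress-induced factor, was at 0.50 and 0.39 in the p53-null sets and at 0.05 and 0.53 in HCT116. In HCT116, 1 passed, where 3.72% of all genes did, 3.05% as lower. SIK1, a kinase that restrains CREB coactivators, fell by 0.48 ± 0.07 (limma, adjusted p = 0.027), which is uncertain because of the near-identical copy SIK1B. With no replicate block, and without either p53-null set, 0 of these genes passed in HCT116. Without HCT116 replicate 1, ATF3 rose in p53-null cells by 0.44 (limma, adjusted p = 0.013), where 2.38% of genes passed, 1.22% as higher. HCT116 then again has 1 treated and 1 DMSO array. Between them EGR1 differed by 0.74, ATF3 by 0.53, IER2, another immediate early gene, by 0.24 and SIK1 by -0.39.

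All 7 genes known as NR4A targets in neurons, bone or endocrine cells (TH, SLC6A3, SLC18A2, POMC, STAR, HSD3B2 and SPP1) were measured and none passed, with 0 in p53-null cells and 2 in HCT116 at an unadjusted p under 0.05. Of all 18613 genes, 0.398% passed in p53-null cells and 3.72% in HCT116, and 2183 and 4746 were at such an unadjusted p. Their differences ran from 0.02 to 0.06 in p53-null cells and from 0.00 to 0.10 in HCT116. Whether these cells express the 7 genes was not examined. The small differences therefore do not show whether targets of NR4A responded in these cells. HSD3B2, a steroid synthesis enzyme, was at 0.03 ± 0.04 and 0.10 ± 0.04, and SLC6A3, the dopamine transporter, at 0.06 ± 0.03 and 0.05 ± 0.03 (SE).

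**Figure D5:**
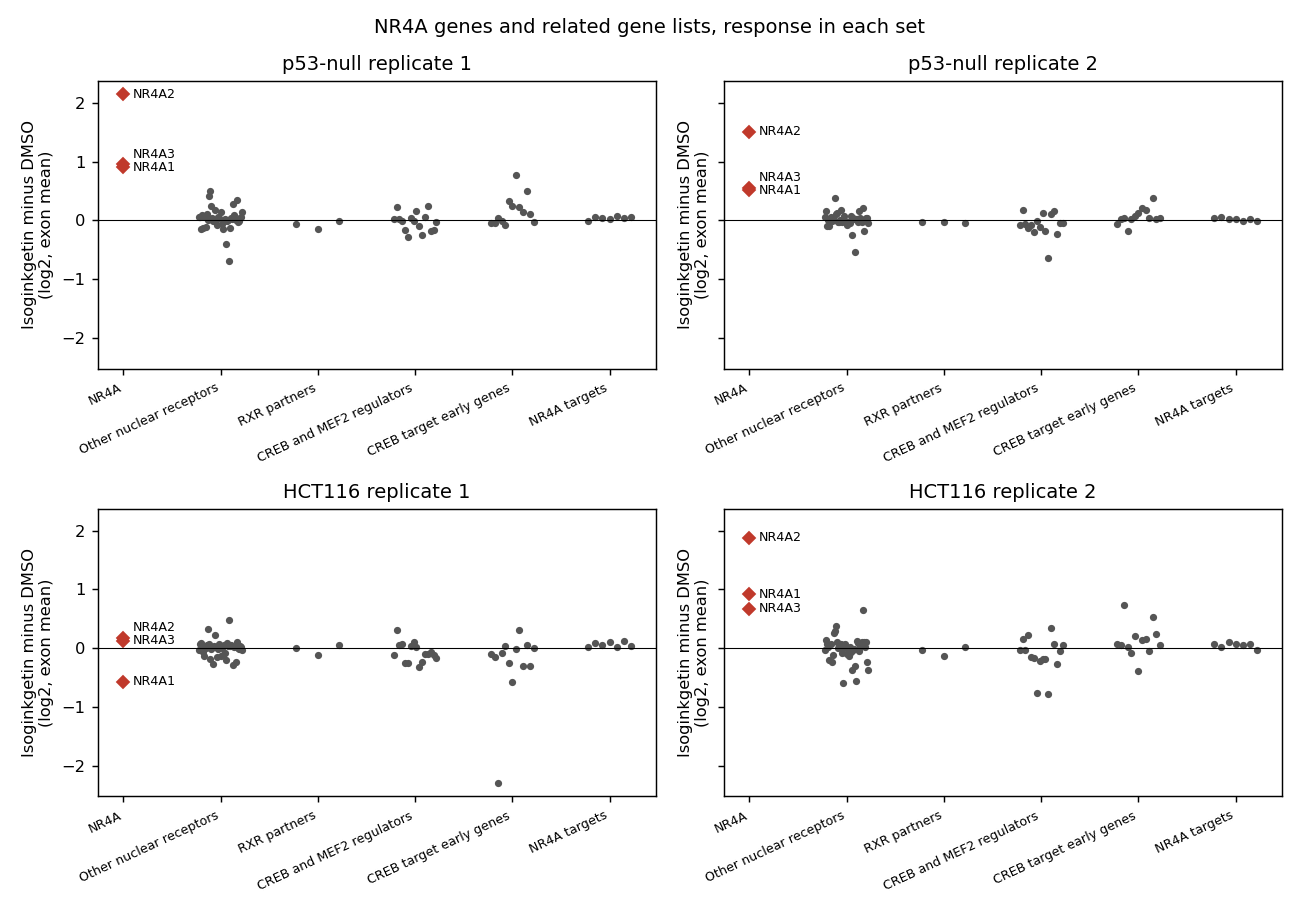
Isoginkgetin minus DMSO (log2, exon mean) in each of the 4 sets for the 3 NR4A genes (red diamonds) and for the measured members of 5 related gene lists (grey points), with a line at 0. The low point among the early genes in HCT116 replicate 1 is EGR1 at -2.30.

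Over the 12 arrays, with each set centred on its mean, the exon means of NR4A2 and NR4A3 correlated at r = 0.969, those of NR4A1 and NR4A2 at r = 0.888 and those of NR4A1 and NR4A3 at r = 0.830. The points share sets and treatments, so these are descriptions. Of 177 genes with an SD of at least 0.25 after centring, those most like NR4A2 were ATF4 (r = 0.992), SLC7A11 (0.989), HERPUD1 (0.985), SLC30A1 (0.985) and CREB3L2 (0.983). Those most like NR4A1 were PSAT1 (0.927), AVPI1 (0.924) and ASNS (0.922), and those most like NR4A3 were STC2 (0.990), SESN2 (0.978) and NR4A2 (0.969). Without HCT116 replicate 1, r with NR4A1 was 0.996 for PSAT1, 0.982 for AVPI1 and 0.993 for ASNS. SLC7A11, the cystine transporter, differed by 2.28 and 1.60 log2 between isoginkgetin and DMSO in p53-null cells and by -0.01 and 2.58 in HCT116, and STC2, a secreted glycoprotein, by 1.67 and 1.09 in p53-null cells and by 0.34 and 1.40 in HCT116. In HCT116 replicate 1 PSAT1, AVPI1 and ASNS were between -0.11 and -0.07, where NR4A1 was at -0.58.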

How the data were processed

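Per the labels' protocols, RNA was prepared with a column kit, copied into single-stranded cDNA, fragmented and labelled with biotin. The authors processed the arrays with the Transcriptome Analysis Console 4.0 at default settings, per the design text, and deposited log2 values per gene and per probe set. How background was corrected and probes were summarised is not given in the sources used here. Precision is limited by the number of arrays, 2 per group, which the design text calls independent experiments.

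Values were used as deposited. Exon means are averages of the log2 values over a gene's exon probe sets that have 1 symbol, for genes with at least 3 (381400 probe sets, 18613 genes, median 16). Tests were run with limma 3.58.1 in R 4.3.3 on all 12 arrays, with line and replicate number (set) as a block, treatment effects per line, Benjamini-Hochberg adjustment over all genes or probe sets and a threshold of 0.05, and were first tested on simulated data. The lines were compared on the 4 untreated arrays. The design text names an unpaired analysis of variance, and the fit without the block is among the alternatives. Deviations from the group means correlated at 0.903 to 0.997 in the 6 pairs of arrays of one line and number, and at 0.0678 to 0.107 in the 9 same-numbered pairs across lines. In HCT116 (0.985 to 0.997) the deviations hold the marker difference of replicate 1, so neither these pairs nor those across lines can decide on pairing. Pairing of numbers within a line therefore rests on the p53-null pairs, at 0.903 to 0.904.

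Named genes were every called member of a list, or the 4 with the smallest adjusted p where more were called, or, where none was called, the 2 with the largest mean absolute difference over the sets. The genes most like each member were named by Pearson r. Members and lists were chosen with earlier results of these data known. Symbols came from the platform annotation, with 2474 symbols updated to current ones. Alternatives covered scaling, control, probe set selection, the block and left-out sets. In all, 1 gene is not reported here.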

Additional observations from a re-analysis of the deposited data

Results flagged for a closer look

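Among 89 exon means (the members, the listed genes and the genes most like the members) and 42 member junctions, 9 and 2 had isoginkgetin minus DMSO of one sign in both p53-null sets and of the other sign in both HCT116 sets. The share of all genes and of all junctions with this pattern was not counted, so these numbers show no excess. For each, the difference was not tested, and the HCT116 mean includes replicate 1, which stood apart in cell type markers. For the NR4A2 junction JUC02020164.hg.1 the response was lower in p53-null cells than in HCT116 by -1.50 log2 (-0.76 and -0.54 in p53-null cells, 0.48 and 1.23 in HCT116). Against untreated arrays its values were -0.01 and 0.12 in p53-null cells and 0.86 and 0.69 in HCT116, without that split of signs. For SIK1 the p53-null response was higher by 0.658 (0.24 and 0.12 in p53-null cells, -0.57 and -0.39 in HCT116). ESRRA differed by 0.390 (0.28 and 0.15 in p53-null cells, -0.29 and -0.05 in HCT116) and DUSP1 by 0.272 (0.14 and 0.05 in p53-null cells, -0.31 and -0.05 in HCT116). CRTC2 differed by -0.218, THRA by -0.197, NR3C2 by -0.161, NR2C1 by 0.123 and NR0B1 by 0.0941. For RXRG the difference was -0.0704, with -0.01 and -0.05 in p53-null cells and 0.06 and 0.02 in HCT116. For the NR4A1 junction JUC12002929.hg.1 it was -0.0988, with -0.09 and -0.06 in p53-null cells and 0.02 and 0.04 in HCT116, at a level of 1.60 to 2.34 log2 on all 12 arrays. Groups of 2 arrays allow no check for single outlying arrays.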

How the results depend on the processing

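With 2 sets a line, 1 set decides much. The NR4A2 and NR4A3 exon means were higher with isoginkgetin than with DMSO in both lines under every scaling, control, probe set selection and left-out set tried. NR4A1 was so in p53-null cells, but in HCT116 it was -0.20 by the median of its exon probe sets and -0.58 without HCT116 replicate 2. Without that set, which leaves HCT116 replicate 1 alone, NR4A2 was at 0.17 and NR4A3 at 0.13, both at low levels. The median difference over exon probe sets in HCT116 replicate 1 was 0.02 for NR4A2 and 0 for NR4A3. Their gene-level rows did not differ there, so no rise is shown in that set. The relative level of JUC02020164.hg.1 in p53-null cells was -1.76 against untreated arrays.

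The number of genes called for isoginkgetin against DMSO rested on the block and the sets. With no replicate block it was 0 in both lines, and so it was for the 2 nuclear receptors and the 1 early gene called in HCT116. In p53-null cells the 74 genes became 3 with an intensity trend, 121 among genes at or above the median level and 0 to 443 with a set left out. In HCT116 the 693 became 448 after quantile scaling, 1447 after centring and 0 to 2576 with a set left out; leaving out either p53-null set gave 0 and leaving out HCT116 replicate 2 gave 1186. With a set left out, called nuclear receptors ranged from 0 to 4 in p53-null cells and 0 to 9 in HCT116, CREB and MEF2 regulators from 0 to 1 and 0 to 4, and early genes from 0 to 1 and 0 to 4. In HCT116, 1 nuclear receptor was called with the intensity trend and 1 after quantile scaling, and 2 CREB and MEF2 regulators after centring. The list of NR4A targets and the retinoid X receptors had 0 called in all of these. A line with a set left out has 1 treated and 1 DMSO array. Its counts then rest on the spread of the other line and cannot show which genes differed in it.

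DMSO minus untreated ranged with a set left out from -0.10 to 0.058 for NR4A1 and from -0.22 to 0.18 for NR4A2 in p53-null cells, and from -0.082 to 0.12 for NR4A2 in HCT116. The block changed no call for the members. Between untreated lines, NR4A1 was 0.35 after quantile scaling and 0.36 after centring, and -0.60 to 0.42 with an array left out (0.07 without p53-null replicate 2). NR4A3 was 0.19 and 0.34 after the 2 scalings, and NR4A2 1.51 to 5.96 with an array left out. Of the 5 genes most like NR4A2, 1 remained by Spearman rho and 2 without HCT116 replicate 1, and of the 3 most like NR4A1 and NR4A3, 1 each remained without HCT116 replicate 1. NR4A3 and several junctions lie near the bottom of the scale, which limits what their differences can show.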
